A study of Drosophila melanogaster with 3 samples.

Results

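The mitochondrial ribosomal protein genes of Drosophila melanogaster were taken as the protein-coding genes of the dm6 annotation whose symbol starts with mRpL (large subunit) or mRpS (small subunit). They numbered 73 of 13968 protein-coding genes, 47 of them for the large and 26 for the small subunit. Their transcription start regions were examined for binding of Su(H), Suppressor of Hairless, in ChIP-seq of whole embryos, which mix every embryonic cell type. The flies were a transgenic line stably expressing Su(H) with GFP at its C-terminus. Embryos of both sexes were collected at 0 to 24 h, and chromatin was pulled down through the GFP tag. The 3 biological replicates formed 1 group, with no other genotype, treatment or stage beside it, so the only comparison the design allows is between genes. The values were lists of peaks on dm6 with the signal that the authors gave each peak. A list held to reproducible peaks (thresholded) had 3833 peaks, and the list from pooled libraries and each replicate list had 30000, which include background by design. A gene was counted as bound when a summit of the thresholded list lay within 500 bp of one of its annotated starts. The same window served for summits of the other lists. A start was divergent when another gene began 0 to 500 bp upstream on the opposite strand. Read depth is unknown from these lists.

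Mitochondrial ribosomes translate the few proteins encoded by mitochondrial DNA, which are core subunits of the respiratory chain and ATP synthase. Their RNA comes from that DNA, while all their proteins are encoded in the nucleus and imported. Su(H) is the DNA-binding partner of the Notch receptor's intracellular domain. With that domain it activates target genes, and with Hairless it represses them. A thresholded summit is therefore a place where the fusion protein was recovered, and says nothing of which gene nearby, if any, it acts on.

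A thresholded summit lay at the start of 21 of the 73 mitochondrial ribosomal protein genes (28.8%, 95% Wilson interval 19.7 to 40.01%), against 19.4% of all protein-coding genes. The 2 strongest stood between divergent starts, and 4 examples show the DNA under the summits. They are from the dm6 genome of RefSeq, and each runs in the direction of its mitochondrial ribosomal protein gene. The first is the whole stretch from the start of Art3 to the start of mRpS10 (chr3R:15229408-15229665, plus strand), with the first and last base, which are those starts, and the summit in capitals. The second is 100 bp to each side of the summit at mRpS23 (chr2L:13835356-13835556, minus strand), the third the same window at mRpL23 (chr3L:2373547-2373747, minus strand) and the fourth at mRpL4 (chr2L:16329121-16329321, minus strand), which has no divergent neighbour. In these windows the base at the summit is in capitals. So is CACGTG, the E-box bound by Myc and its relatives, in mRpL23, and ATCGAT, the core of the element bound by the promoter factor DREF, in mRpL4. None of the 4 stretches was chosen for a Su(H) site, and no thresholded summit of these genes had one within 100 bp.
mRpS10: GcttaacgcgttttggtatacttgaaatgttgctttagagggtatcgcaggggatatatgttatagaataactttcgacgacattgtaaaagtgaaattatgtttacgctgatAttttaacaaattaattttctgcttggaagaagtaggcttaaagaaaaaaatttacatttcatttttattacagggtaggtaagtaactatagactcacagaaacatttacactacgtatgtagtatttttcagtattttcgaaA
mRpS23: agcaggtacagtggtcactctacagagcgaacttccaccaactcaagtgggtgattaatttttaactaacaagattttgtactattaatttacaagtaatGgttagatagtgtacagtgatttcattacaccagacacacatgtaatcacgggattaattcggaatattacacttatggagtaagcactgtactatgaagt
mRpL23: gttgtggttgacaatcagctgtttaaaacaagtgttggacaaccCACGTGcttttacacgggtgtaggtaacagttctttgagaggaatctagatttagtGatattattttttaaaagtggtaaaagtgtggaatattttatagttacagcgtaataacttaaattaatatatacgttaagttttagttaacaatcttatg
mRpL4: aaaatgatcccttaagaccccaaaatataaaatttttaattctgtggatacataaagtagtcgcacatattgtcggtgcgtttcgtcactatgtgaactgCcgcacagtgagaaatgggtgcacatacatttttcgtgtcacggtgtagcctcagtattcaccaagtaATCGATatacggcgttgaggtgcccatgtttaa

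Among the small subunit genes the highest signals were at mRpS23 and mRpS10. mRpS23 encodes a protein with no bacterial counterpart. Its peak on 2L (13835275 to 13835649) had a signal of 397, 535 and 567 in replicates 1, 2 and 3 (499.6 ± 90.1, SD, n = 3) and 1492 in the pooled list, rank 14 of 30000. Replicate 1 was the lowest, yet every replicate list placed the peak among its strongest, at ranks 22, 11 and 12. The summit lay 384 bp upstream of the mRpS23 start, the largest distance among the 21 genes, and 108 bp from the start of CenG1A, which encodes a GTPase-activating protein for Arf. mRpS10 encodes the counterpart of bacterial S10, in the head of the small subunit. Its peak on 3R (15229345 to 15229716) had 429.7, 506 and 495 in the 3 replicates (477 ± 41.2) and 1433 in the pooled list, rank 17. The replicates lay close together, and the summit stood near the middle of the printed stretch, 144 bp from the mRpS10 start and 113 bp from that of Art3, a protein arginine methyltransferase gene.

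Among the large subunit genes mRpL41 and mRpL23 stood apart from the rest. mRpL41, another protein without a bacterial counterpart, had a peak on 2R (15217582 to 15217945) with 455, 433 and 523 in the replicates (470.4 ± 47.1) and 1417 in the pooled list, rank 18. It has no divergent start, and the next start of another gene, that of the long noncoding RNA gene CR44463, lay 440 bp from the summit. mRpL23 encodes a protein at the rim of the tunnel through which the new chain leaves the ribosome. Its peak on 3L (2373450 to 2373792) had 254, 244 and 208 (235 ± 24.1) and 699.5 in the pooled list, rank 92. This was the 1 summit of the 21 that fell downstream of the nearest start, by 31 bp, and CG9004 began 81 bp from it.

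These 4 genes held ranks up to 100, which 5.48% of the 73 genes did, against 0.666% of all protein-coding genes. With 4 genes the share is imprecise, and it was not tested. Below them came a drop, since mRpL23 had 2.42 times the pooled signal of the fifth gene, mRpL34. From the strongest to the weakest of the 21 the pooled signal spanned 12.9-fold. All replicates of the 4 strongest genes were above all replicates of the other 17.

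**Figure D1:**
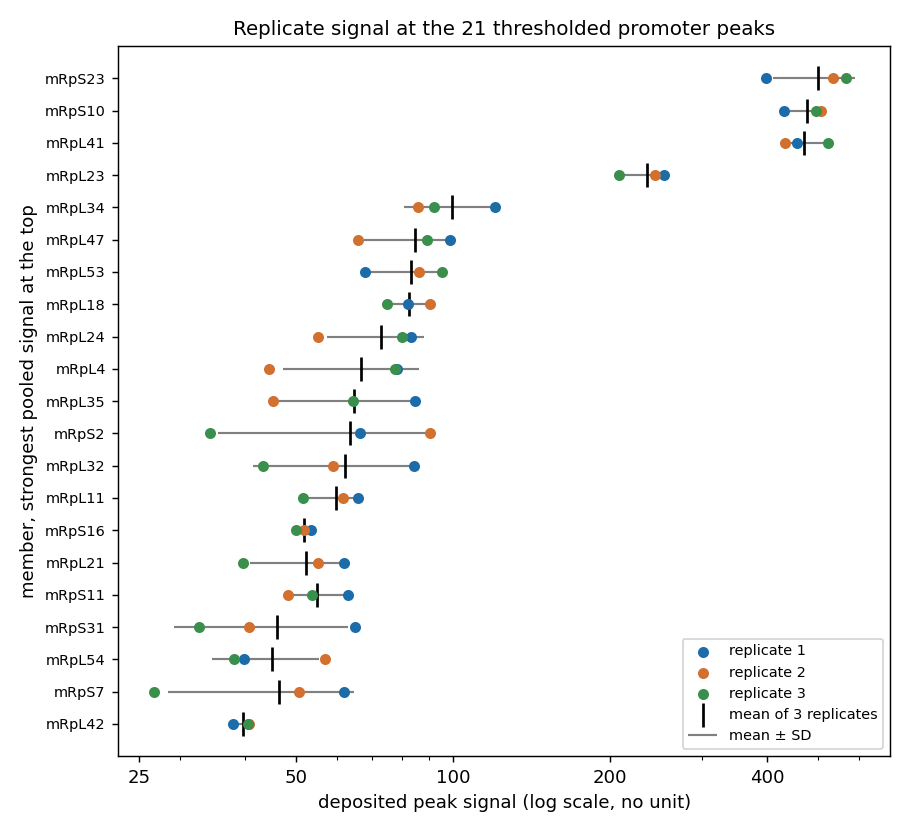
Deposited peak signal on a log axis (no unit) in replicates 1, 2 and 3 at the thresholded promoter peak of each of the 21 genes, with the mean and SD of the 3, sorted by pooled signal from the top. mRpS23, mRpS10 and mRpL41 lie between 397 and 567, mRpL23 between 208 and 254, and the other 17 at 121 or below.

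The next 8 genes by pooled signal were all for the large subunit except mRpS2. mRpL34 encodes a small protein that binds ribosomal RNA, and its signals were 121, 85.5 and 91.9 in replicates 1, 2 and 3 (99.3 ± 18.7; pooled 289). mRpL47, the counterpart of bacterial L29 near the tunnel exit, had 98.5, 65.7 and 89.3 (84.5 ± 16.9; pooled 267). In both the lowest value was that of replicate 2. mRpL53, found in mitochondrial and not in bacterial ribosomes, had 67.8, 86.1 and 95.1 (83.0 ± 13.9; pooled 255), and mRpL18 had 82.1, 90.2 and 74.6 (82.3 ± 7.80; pooled 252). The means of mRpL47, mRpL53 and mRpL18 differed by less than the SD of any of them.

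mRpL24 and mRpL4 belong, like mRpL23, to the walls and rim of the exit tunnel. mRpL24 had 83.1, 55.1 and 79.8 (72.7 ± 15.3; pooled 213), and mRpL4 had 78.2, 44.3 and 77.3 (66.6 ± 19.3; pooled 204). mRpL35 had 84.5, 45.2 and 64.4 (64.7 ± 19.6; pooled 195). In all 3 genes replicate 2 was again the lowest. mRpS2, the counterpart of bacterial S2, had 66.4, 90.2 and 34.2 (63.6 ± 28.1; pooled 190.2). Its SD was 44.2% of the mean, the largest of the 21, and its rank was 780 in replicate 2 and 4582 in replicate 3.

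The weakest 5 of the 21 were mRpS11, mRpS31, mRpL54, mRpS7 and mRpL42. mRpS11 had 62.8, 48.2 and 53.8 (54.9 ± 7.39; pooled 153), and mRpS31 had 64.9, 40.6 and 32.7 (46.1 ± 16.8; pooled 143). mRpL54 had 39.7, 56.9 and 38.1 (44.9 ± 10.4; pooled 136). Which replicate was highest differed from gene to gene. mRpS7, the counterpart of an early-assembling bacterial head protein, had 61.9, 50.8 and 26.7 (46.5 ± 18.0; pooled 130.3), with rank 7171 in replicate 3 and replicate summits up to 174 bp from the thresholded one. mRpL42 had 37.8, 40.6 and 40.5 (39.6 ± 1.59; pooled 116) at the strongest summits in its window. In replicate 1 the summit nearest to the thresholded one had 23.0, so the closeness of the 3 values rests on that choice. The smallest SD relative to the mean was that of mRpS16, whose values were 53.4, 51.9 and 50.01 (51.8 ± 1.68, which is 3.26% of the mean). mRpS16 ranked above these 5, with a pooled signal of 172, and the nearest replicate summits gave it the same values. The others, mRpL32, mRpL11 and mRpL21, had pooled signals of 178, 173 and 168.

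Over the 21 genes the replicate SD was at most 20% of the mean in 11 and at most 40% in 20. Replicate 1 gave the highest signal in 13 genes and replicate 3 the lowest in 10, and the lists are not stated to be scaled for depth. The median over the 21 genes was 78.2 in replicate 1, 58.9 in replicate 2 and 64.4 in replicate 3. All 21 summits had a summit within 200 bp in each replicate list, and 19 within 100 bp. The thresholded list was held to reproducible peaks, and replicate lists include background, so these matches were largely fixed by that choice. When each replicate list was taken to its own strongest 3833 peaks, 22, 24 and 23 mitochondrial ribosomal protein genes were counted, against 19.7, 18.4 and 19% of all protein-coding genes in replicates 1, 2 and 3. In all 3 of these lists there were 18 genes (24.7%), against 12.7% of all genes. None of these shares was split by promoter type, that is, by whether a start was divergent. The Spearman correlation of signal between replicates, over the 44 to 50 mitochondrial ribosomal protein genes with a summit in both lists, was 0.790 for 1 with 2, 0.767 for 1 with 3 and 0.712 for 2 with 3. Over all protein-coding genes it was 0.734, 0.736 and 0.758. These points are genes that share the same libraries, so they describe the lists and are not replicates.

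Most of these genes share their start region with another gene. A divergent start lay within 500 bp of 53 of the 73 genes (72.6%), against 29.6% of all protein-coding genes, 41.3% of the 92 cytoplasmic ribosomal protein genes and 43.3% of the 90 nuclear genes of the respiratory chain. The cytoplasmic ribosome makes the bulk of the cell's proteins, and the respiratory chain is where the products of mitochondrial translation are used. In every one of the 53 the neighbour was a protein-coding gene. Among genes with a divergent start, 19 of 53 mitochondrial ribosomal protein genes had a thresholded summit (35.8%, 24.3 to 49.3%), against 36% of all such genes. Among genes without, 2 of 20 had one (10%, 2.79 to 30.1%), against 12.3% of all such genes. Within each promoter type the share was thus near the background, although over all promoters it was 28.8% against 19.4%.

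The shares of the 2 comparison families lay to either side of that of the mitochondrial ribosomal protein genes, and these differences were not tested. Of the cytoplasmic ribosomal protein genes 62 of 92 had a thresholded summit (67.4%), 84.2% of those with a divergent start and 55.6% of those without. Of the respiratory chain genes 15 of 90 had one (16.7%), 12 of 39 with a divergent start (30.8%) and 3 of 51 without (5.88%). Genes with several annotated starts have more chances of a summit nearby, but only 8.22% of the mitochondrial ribosomal protein genes had more than 1 start, against 26.5% of all genes. Among genes with 1 start and a divergent neighbour, 16 of 48 mitochondrial ribosomal protein genes were bound (33.3%), against 31.5% of all such genes.

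**Figure D2:**
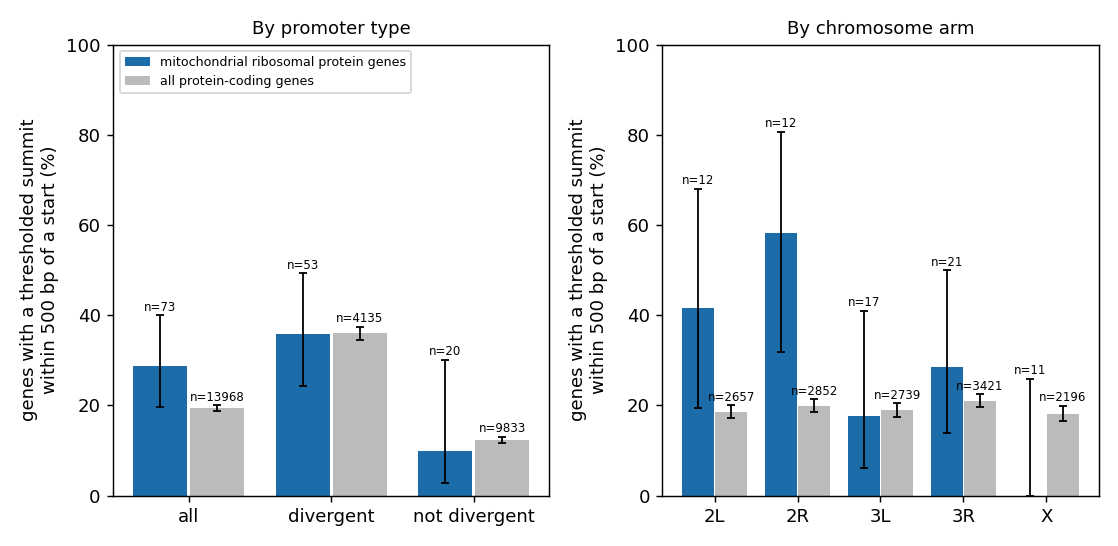
Share of genes in percent with a thresholded summit within 500 bp of a start, for mitochondrial ribosomal protein genes (blue) and all protein-coding genes (grey), by promoter type on the left and by chromosome arm on the right. Error bars are 95% Wilson intervals and n is the number of genes. With a divergent start the shares are 35.8% and 36%, and on X no mitochondrial ribosomal protein gene has a summit.

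A thresholded summit lay at 14 of 47 large subunit genes (29.8%, 18.7 to 44.0%) and 7 of 26 small subunit genes (26.9%, 13.7 to 46.1%), shares that differed by less than their intervals. The symbols follow bacterial numbering up to 36 in the large and 21 in the small subunit, and higher numbers mostly name proteins that bacteria lack. Of the 42 genes with bacterial numbers 14 were bound (33.3%, 21.01 to 48.4%), and of the 31 with higher numbers 7 were (22.6%, 11.4 to 39.8%). The intervals overlap, and the difference was not tested.

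The chromosome arms were less even. On 2R 7 of 12 genes had a thresholded summit (58.3%, 32.0 to 80.7%), against 19.9% of all protein-coding genes there. With a divergent start it was 6 of 10 (60%, 31.3 to 83.2%), against 36.6% of all such genes of the arm, which lies inside the interval. On X none of 11 had one, which allows a share of up to 25.9%, against 18.2% of all genes of that arm. Of the 11 X-linked genes 7 had a divergent start, and among all X-linked genes with one 32.0% were bound. In the pooled list 8 of the 11 did have a summit, with signals between 34.6 and 104, the highest being mRpL22. On 2L it was 5 of 12 (41.7%), against 18.6% of all genes, on 3L 3 of 17 (17.6%), against 18.9%, and on 3R 6 of 21 (28.6%), against 21.05%.

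The summits sat upstream of these genes, and mostly toward the neighbour. Of the 21 summits 20 lay upstream of the nearest start (95.2%), against 81.9% for all protein-coding genes. Among genes with a divergent start it was 18 of 19 (94.7%), against 87.6% for all such genes. The median distance from the start was 150 bp, against 106 bp for all genes, 100 bp for respiratory chain genes and 23.5 bp for cytoplasmic ribosomal protein genes. Within 100 bp of the start were 7 of the 21 summits (33.3%), against 48.0% for all genes and 90.3% for cytoplasmic ribosomal protein genes. These differences in distance were not tested.

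Of the 19 genes with a divergent start, 15 had the summit nearer to the neighbour's start than to their own (78.9%). The share was 45.2% over all protein-coding genes, 6 of 12 for the respiratory chain and 4 of 32 (12.5%) for the cytoplasmic ribosomal proteins. In a pair of 2 protein-coding genes both partners are counted, so the share over all genes lies near an even split by construction. Counting every annotated start, in 18 of the 19 (94.7%) the summit lay between a start of the gene and one of its neighbour. The exception was mRpL18, where it lay 152 bp upstream, beyond the start of Taz. Such a position was also common elsewhere, with 78.8% over all protein-coding genes with a divergent start. It was 91.7% for the respiratory chain and 87.5% for the cytoplasmic ribosomal proteins. All 19 summits were also within 500 bp of the neighbour's start, so each counts for both genes and these data do not assign it to one.

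The neighbours nearest to the summits had varied roles. The summit lay 21 bp from the start of cg, a zinc finger gene beside mRpS16, 22 bp from Ns1, a nucleolar GTPase gene beside mRpS11, and 24 bp from Mon1, a vesicle trafficking gene beside mRpS2. At the same genes the distances to the ribosomal protein gene's own start were 76, 35 and 198 bp. At mRpL21 the summit was 29 bp from rept, which encodes an ATPase of chromatin remodelling complexes, and 250 bp from mRpL21. Some neighbours encode mitochondrial proteins themselves. Mitofilin, which shapes the inner membrane, began 42 bp from the summit at mRpL35. HtrA2, a protease gene, began 86 bp from that at mRpL11, qless, for coenzyme Q synthesis, 130 bp from that at mRpL32, and Taz, for cardiolipin remodelling, 132 bp from that at mRpL18. Others act elsewhere in the cell, among them the cell cycle kinase gene Cdk1 (155 bp, beside mRpS7) and Dg, which encodes the matrix receptor dystroglycan (176 bp, beside mRpL34). The summit was 24 bp from CG8176 at mRpL47, 41 bp from CG15653 at mRpL54 and 60 bp from betaggt-I at mRpL24. In 4 of the 19 divergent genes, mRpL23, mRpL53, mRpS31 and mRpL42, the summit was nearer to the ribosomal protein gene. At mRpL53 it was 58 bp away, but CG33155 shares that start, and AGO1, the Argonaute of the microRNA pathway, began 112 bp from the summit on the other side.

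**Figure D3:**
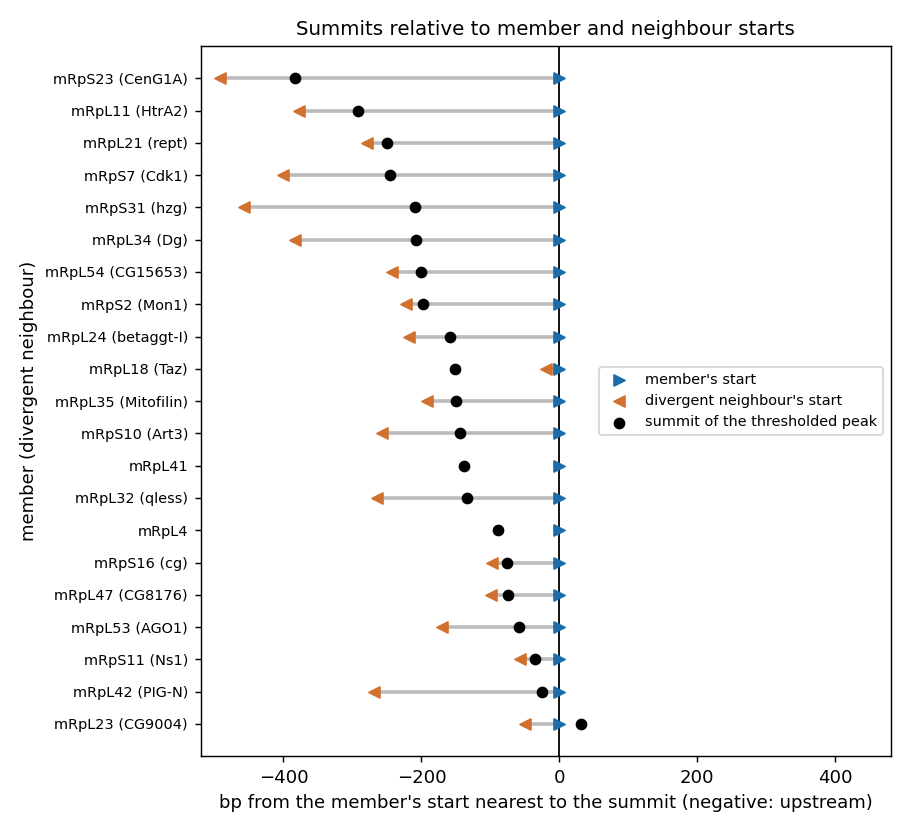
Position in bp of the thresholded summit (black) relative to the nearest start of each of the 21 genes (blue, at 0, negative values upstream), with the divergent neighbour's start that is nearest to the summit (orange). Genes are sorted from the summit 384 bp upstream at mRpS23 to that 31 bp downstream at mRpL23, and 15 of 19 summits are nearer to the orange mark.

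Below the threshold, 41 genes had a summit in the pooled list alone, with signals from 30.3 to 106 (median 58.3). Of these, 21 also had a summit in all 3 replicate lists. The replicate lists include background, and no share over all pooled-only genes stands beside this count. mRpL44 ranked 3835, just past the last of the 3833 thresholded peaks, with 33.9, 24.2 and 45.9 in replicates 1, 2 and 3, of which that of replicate 2 came from another summit in the window. At 493 bp its summit was almost outside the window, and Snr1, a chromatin remodelling gene, is its divergent neighbour. mRpL22 had 36.7, 14.4 and 44.3, and mRpL2, part of the peptidyl transferase region, had 34.6, 34.5 and 38.5 beside the divergent start of FoxK. mRpL50 had 34.5, 29.8 and 36.2, and mRpS26 had 26.9, 47.5 and 36.4. At mRpL22 replicate 2 was the lowest and at mRpS26 the highest, while mRpL2 was even. mRpL42, the weakest of these genes with a thresholded summit, at rank 3314, had replicate values of 37.8 to 40.6, which overlap those of mRpL44.

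Over the whole pooled list 62 of the 73 genes had a summit (84.9%), against 54.4% of all protein-coding genes and 80 of 92 cytoplasmic ribosomal protein genes (87.0%). Split by promoter type it was 50 of 53 genes with a divergent start (94.3%, 84.6 to 98.1%), against 75.9% of all such genes, and 12 of 20 without (60.0%, 38.7 to 78.1%), against 45.3%. Here the share stayed above the background within both types, though for genes without a divergent start the background lay inside the interval. The median pooled signal of the 62 was 74.4, against 78.1 for all genes with one. Replicate lists 1, 2 and 3 held a summit at 49, 57 and 58 of the 73 genes (67.1, 78.1 and 79.5%), against 51.3, 53.3 and 54.5% of all genes. All 3 lists held one at 42 (57.5%), against 37.4%. The replicate shares were not set against all genes of the same promoter type.

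**Figure D4:**
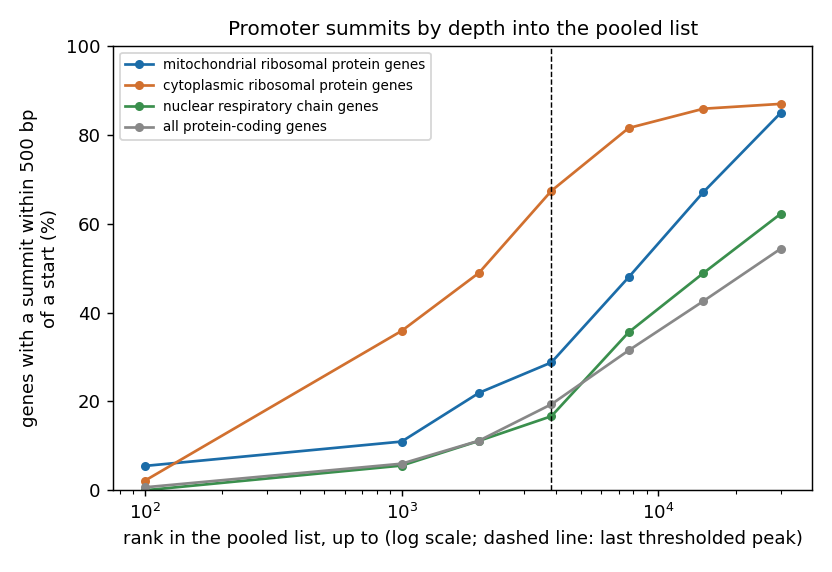
Percent of genes with a summit within 500 bp of a start among the strongest peaks of the pooled list, by the rank up to which the list was read (log axis), for mitochondrial and cytoplasmic ribosomal protein genes, nuclear respiratory chain genes and all protein-coding genes. At the dashed line, rank 3833, the mitochondrial ribosomal protein genes reach 28.8% and the cytoplasmic ones 67.4%. At rank 30000 they reach 84.9% and 87.0%.

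No pooled summit was found at 11 genes: mRpL10, mRpL14, mRpL30, mRpL33, mRpL40, mRpL45, mRpS5, mRpS24, mRpS33, mRpS34 and mRpS35. Of them 8 have no divergent start, and the other 3, mRpL30, mRpL33 and mRpS24, face HLH4C, norpA and Apc2. Over all protein-coding genes, too, a pooled summit was less common without a divergent start (45.3%) than with one (75.9%). The count of 8 is therefore no result about these genes. In 6 of the 11 no replicate list held a summit either. mRpS24 had 17.5 in replicate 2, at 30 bp upstream of its start, and 28.2 in replicate 3, at 397 bp upstream. These are different summits, and Apc2 begins 421 bp upstream. mRpL14, mRpL45, mRpS5 and mRpS35 had a summit of 15.3 to 18.6 in 1 replicate list. The lowest signals in the lists of replicates 1, 2 and 3 were 14.5, 11.01 and 11.7. mRpL10, whose protein anchors the stalk that recruits translation factors, had none in any list.

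Sequence motifs were then sought on both strands within 100 bp of the summits. The Su(H) site was searched as CGTGAGAA, CGTGGGAA, TGTGAGAA and TGTGGGAA. It was in none of the 21 thresholded summits of these genes, which allows a share of up to 15.5%, and in 67 of 1949 thresholded promoter summits of all protein-coding genes (3.44%). It was also in none of the 41 pooled-only summits, against 2.56% for all genes. At the background share fewer than 1 of 21 windows would hold one, so the count of 0 is no result about these genes. Within 200 bp, 3 of the 21 held one (14.3%, 4.98 to 34.6%), against 5.95% of the 1949. It lay 112.5 bp from the summit at mRpS7, 161.5 bp at mRpL47 and 166.5 bp at mRpL53.

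The DREF element, TATCGATA, binds a factor of many housekeeping promoters. It was in none of the 21 thresholded summits, against 9.90% for all genes. That 0 allows a share of up to 15.5% and is no result about these genes. Within 200 bp it was in 3 of the 21 (14.3%), against 13.9%. Of the 41 pooled-only summits 5 held it within 100 bp (12.2%, 5.32 to 25.5%), against 5.56%, which lies inside the interval. These 5 are printed because they are the summits of these genes with the whole DREF element within 100 bp, and mRpL48 is added as the 1 summit with Motif 1, a core promoter element bound by M1BP. Sequences are from the RefSeq dm6 genome with 30 bp to each side of the element, which is in capitals: mRpL12 (chr3L:8956784-8956851, plus), mRpS25 (chrX:14582986-14583053, minus), mRpS18B (chr2L:20097220-20097287, minus), mRpL19 (chr3R:8674054-8674121, plus), mRpL39 (chr3L:14999661-14999728, minus) and mRpL48 (chr2L:1710411-1710481, plus).
mRpL12: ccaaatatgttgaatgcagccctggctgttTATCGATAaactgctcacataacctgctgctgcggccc
mRpS25: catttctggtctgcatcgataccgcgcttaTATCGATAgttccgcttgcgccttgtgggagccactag
mRpS18B: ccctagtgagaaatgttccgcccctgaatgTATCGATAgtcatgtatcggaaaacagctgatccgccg
mRpL19: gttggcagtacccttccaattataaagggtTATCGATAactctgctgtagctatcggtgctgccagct
mRpL39: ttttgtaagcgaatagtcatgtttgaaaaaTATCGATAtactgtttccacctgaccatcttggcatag
mRpL48: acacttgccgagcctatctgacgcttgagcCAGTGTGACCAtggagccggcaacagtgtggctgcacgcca

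The element lay 37.5 bp from the summit at mRpL12, 65.5 bp at mRpS25, 24.5 bp at mRpS18B, 72.5 bp at mRpL19 and 46.5 bp at mRpL39, counted to its centre. Motif 1 lay 8 bp from the summit at mRpL48. These peaks were weak in the pooled list, at 79.4 for mRpL12, 62.2 for mRpS25, 60.0 for mRpL48, 54.1 for mRpS18B, 33.5 for mRpL19 and 30.3 for mRpL39. mRpL12, which forms the flexible stalk, had 34.7, 18.5 and 13.1 in replicates 1, 2 and 3. mRpS25 had 22.5 in replicate 1 and 23.2 in replicate 2, and in replicate 3 no summit within 200 bp of the pooled one.

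In a fixed window from 250 bp before to 50 bp after the start, 15 of the 73 promoters held the DREF element (20.5%), against 9.36% of all protein-coding genes. With a divergent start it was 8 of 53 (15.1%), against 16.8%, and without one it was 7 of 20 (35.0%, 18.1 to 56.7%), against 6.22%. Among promoters with a thresholded summit it was in 3 of 21 (14.3%), those of mRpS23, mRpL4 and mRpL32, against 15.4% of all genes with one. Among promoters without a thresholded summit it was in 12 of 52 (23.1%, 13.7 to 36.1%), against 7.93%. Among these genes the element was thus more frequent at promoters with no divergent start, where thresholded summits were less frequent, a difference that was not tested. The core ATCGAT, which every DREF element contains, was in 2 of the 21 thresholded summit windows (9.52%), those of mRpL4 and mRpL47, against 20.7%.

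Motif 1 was in 6 of the 73 promoters (8.22%), against 4.49% of all genes. With a divergent start it was 5 of 53 (9.43%, 4.10 to 20.3%), against 8.20% of all such genes. Without one it was 1 of 20 (5%, 0.888 to 23.6%), against 2.93%. Within each promoter type the background thus lay inside the interval. The 6 were mRpL13, mRpL22, mRpL48, mRpL55, mRpS21 and mRpS30, and none of them had a thresholded summit. Among promoters with a thresholded summit Motif 1 was thus in 0 of 21, against 6.29% of all genes with one. That 0 allows a share of up to 15.5% and is no result about these genes. Among promoters without a thresholded summit Motif 1 was in 6 of 52 (11.5%), against 4.06%, a comparison not split by promoter type. The Su(H) site was in the promoters of mRpL10, which had no summit in any list, and mRpL53, so 2 of 73 (2.74%), against 3.19%. The Myc E-box, CACGTG, was in the thresholded windows of mRpL23 and mRpS11 (9.52%), against 3.34%, and the Ets core, CCGGAA, in those of mRpS2 and mRpS11, against 6.31%. GAGAGA, the GAGA element, was in none of the 21, against 9.39%. The windows of the 21 had a median GC content of 35.8%, against 39.8% for all thresholded promoter summits. A match in these windows is a run of letters and not a measured site, and counts of 0 to 5 leave wide intervals.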

How the data were processed

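The values were peak lists from ChIP-seq of Su(H)-GFP in 3 replicates, which labels put in 1 group. Per the labels the antibody was against GFP, although a label field names Su(H), and sonication gave 200 to 800 bp. The signal of each peak, its −log10 q value (at its ceiling for 3569 thresholded peaks) and its summit offset, a value of another kind, were used as deposited by the authors. The peak caller, like the aligner and the reproducibility threshold, is not given in the sources used here. A control library was not analysed here. Peaks were called by the authors per replicate and on pooled libraries, per the deposited file lists.

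Starts came from Ensembl release 115 (BDGP 6.54, dm6), all transcripts of a gene counted, and sequences from the RefSeq dm6 genome. Where several summits lay in a window the strongest was taken. A replicate signal is that of its strongest summit within 500 bp of a start. Python 3.11.15, pandas 2.3.3, numpy 2.4.6, scipy 1.17.1 and matplotlib 3.10.9 were used. Wilson intervals (95%) cover counting error only, and neighbouring genes share summits. Depth is unknown, so signal has no interval beyond the SD over replicates. No test was run, as there is 1 group, and counts stand beside those of all protein-coding genes. The summit search was tested on planted summits, and the motif search on simulated sequences with the DREF element only.

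Members, lists, motifs and settings were chosen with earlier results of these data known. Values in full are given for the 12 strongest and 5 weakest genes of the thresholded list, the 5 strongest of the pooled list alone, genes with none, and extremes of spread, distance and motif content. Alternatives were the window, the number of peaks, peak overlap, the annotated 5' end, added symbols, match distance, neighbour distance, motif window and leaving out each replicate.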

Additional observations from a re-analysis of the deposited data

How the results depend on the processing

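The count of 21 genes was 19 with a window of 250 bp (26.03%, against 16.4% of all protein-coding genes), 21 with 1000 bp (28.8%, against 22.0%), 16 with the strongest 2000 peaks (21.9%, against 11.1%), 14 where the peak had to overlap a start (19.2%, against 14.0%) and 8 with the strongest 1000 (10.96%, against 5.98%). These shares were not split by promoter type. Within each type the main share lay near the background (35.8% against 36% with a divergent start, 10% against 12.3% without). Adding tko and bonsai, mitochondrial ribosomal protein genes with other symbols, gave 22, since tko had a thresholded summit with a signal of 119. The count with a divergent start, 19, was 12 when starts had to lie within 250 bp, as they did for 34.2% of the 73 genes, against 15.6% of all genes, and 21 within 1000 bp (79.5%, against 39.6%). The median signal of 64.7 over replicates was 195 in the pooled list, which has another scale. Leaving out each replicate in turn gave medians of 60.8 to 74.4 and a matched count of 21 to 21. That match is largely built into a list of reproducible peaks. Within 200 bp of the summit 3 of the 21 genes held a Su(H) site (14.3%, against 5.95% of all thresholded promoter summits), 3 a DREF element (mRpS23, mRpL4 and mRpL32; 14.3%, against 13.9%) and 1 Motif 1 (mRpL34; 4.76%, against 5.80%). From 250 bp before to 50 bp after the start 1 held a Su(H) site (4.76%, against 3.92% of all genes with a thresholded summit) and 3 a DREF element (14.3%, against 15.4%). The wider windows hold more sequence by construction. For the main results, 8 alternative settings moved a value beyond 1.5 times or the replicate spread. The 26 that kept within it include several given above. Of the mean signals of the 21 genes, 1 moved beyond its SD when the nearest replicate summit replaced the strongest, that of mRpL42, with 34.7 in place of 39.6. No paired analysis was possible because there is 1 group. Whole embryos, unknown depth and 3 libraries limit these values, and a summit between divergent starts cannot be assigned to a gene.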

Other observations

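Small subunit genes with other symbols are tko and bonsai. tko, the counterpart of bacterial S12, had a thresholded summit 55 bp upstream of its start, with 43.7, 20.6 and 50.8 in replicates 1, 2 and 3 and 119 in the pooled list, rank 3179. It has no divergent start. bonsai, the counterpart of bacterial S15, has one and had no pooled summit, with 16.3 in replicate 3 alone.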
